A study of Mus musculus with 19 samples.

Results

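The genes described here encode histones, the proteins around which nuclear DNA is wound. They were taken as every gene of the array whose RefSeq symbol marks it as a clustered histone gene, a histone variant or the centromeric histone gene Cenpa, each represented by its brightest probe. Class I and II major histocompatibility genes, whose symbols also begin with H2, were not included. The rule found 71 genes, with 85 probes, among 38391 features measured. By symbol, 44 were replication-dependent, 24 were variants, and 3 (H1f6, H2ac1 and H2bc1) were clustered genes of a testis type that were kept apart.

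The samples were total RNA of 7 cell populations sorted from marrow of C57BL/6 mice 8 to 12 weeks old. Each of 19 samples had an array of its own, an Agilent design altered by the submitters to follow long noncoding RNAs beside the known genes. The populations were LSK cells (lineage-negative, cKit+, Sca1+; stem and multipotent progenitor cells, 3 arrays), common myeloid progenitors (CMP, CD16/32 low and CD34 high, 3 arrays), megakaryocyte erythroid progenitors (MEP, CD16/32 low and CD34 low, 3 arrays) and granulocyte macrophage progenitors (GMP, CD16/32 high and CD34 high, 2 arrays). Early erythroblasts (EE, 2 arrays) were Ter119+ cells with high forward scatter and high CD44, late erythroblasts (LE, 3 arrays) were Ter119+ with low forward scatter and intermediate CD44, and granulocytes (GR, 3 arrays) were Gr1+. No treatment or mutation is named for any population, and the labels do not say whether the arrays of a population came from separate animals, so the p-values below measure only the spread between these samples.

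Histones come as core proteins (H2A, H2B, H3 and H4), which form the nucleosome, and linker proteins (H1), which bind the DNA between nucleosomes. Replication-dependent histone genes lie in clusters, are transcribed mainly in S phase, when new DNA is packaged, and most of their messages end in a stem-loop instead of a poly(A) tail. Many histone variants are single genes with polyadenylated messages that are made throughout the cell cycle. Some variants mark particular regions, such as H2A.Z at gene starts, H3.3 in active chromatin and CENP-A at centromeres. Red cell precursors go through several fast divisions and then condense their chromatin and expel the nucleus, whereas maturing granulocytes leave the cell cycle and keep a lobed nucleus. The labels do not say how the cDNA was primed.

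The promoters of 7 genes that the comparisons below turn on are shown first. Each line gives the 200 bases before the annotated start, 5′ to 3′ on the strand of the gene, from RefSeq (assembly GRCm38.p6). Capitals mark the letters of 4 motifs known from histone promoters, searched on both strands: the TATA box (TATAAA), the CCAAT box (CCAAT), the octamer of H2A and H2B promoters (ATTTGCAT) and the H1 box (AAACACA). They were chosen after their values were seen: H1f4 and H1f2 are linker genes of the same cluster, H2bc18 had the largest rise into early erythroblasts, H2ac6 and H2ac18 did not follow the other H2A genes, and H1f0 and H3f3b are variants.
H1f4, chr13:23622559-23622758, minus strand: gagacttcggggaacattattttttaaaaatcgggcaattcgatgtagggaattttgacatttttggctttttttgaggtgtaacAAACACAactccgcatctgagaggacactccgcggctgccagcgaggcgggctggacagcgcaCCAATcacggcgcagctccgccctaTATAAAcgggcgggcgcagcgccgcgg
H1f2, chr13:23738607-23738806, plus strand: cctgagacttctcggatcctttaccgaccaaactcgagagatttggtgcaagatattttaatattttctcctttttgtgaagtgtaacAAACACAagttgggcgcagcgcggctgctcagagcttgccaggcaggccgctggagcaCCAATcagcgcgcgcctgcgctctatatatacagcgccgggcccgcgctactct
H2bc18, chr3:96269500-96269699, plus strand: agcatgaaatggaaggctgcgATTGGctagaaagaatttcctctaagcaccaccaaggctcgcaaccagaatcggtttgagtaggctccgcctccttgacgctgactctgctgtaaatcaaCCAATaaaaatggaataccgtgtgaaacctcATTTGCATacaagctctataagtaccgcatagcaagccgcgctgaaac
H2ac6, chr13:23683960-23684159, minus strand: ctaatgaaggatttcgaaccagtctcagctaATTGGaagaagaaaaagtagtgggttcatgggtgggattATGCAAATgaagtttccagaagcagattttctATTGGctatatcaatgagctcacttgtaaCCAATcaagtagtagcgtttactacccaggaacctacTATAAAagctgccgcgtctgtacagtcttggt
H2ac18, chr3:96245297-96245496, plus strand: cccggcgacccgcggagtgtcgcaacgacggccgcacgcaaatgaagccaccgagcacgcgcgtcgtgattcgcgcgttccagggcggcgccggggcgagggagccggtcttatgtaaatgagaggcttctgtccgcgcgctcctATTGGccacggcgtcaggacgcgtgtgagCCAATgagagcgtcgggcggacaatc
H1f0, chr15:79028012-79028211, plus strand: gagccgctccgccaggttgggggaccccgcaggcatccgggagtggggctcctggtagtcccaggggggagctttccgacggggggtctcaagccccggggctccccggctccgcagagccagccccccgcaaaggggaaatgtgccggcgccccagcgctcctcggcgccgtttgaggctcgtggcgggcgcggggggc
H3f3b, chr11:116024505-116024704, minus strand: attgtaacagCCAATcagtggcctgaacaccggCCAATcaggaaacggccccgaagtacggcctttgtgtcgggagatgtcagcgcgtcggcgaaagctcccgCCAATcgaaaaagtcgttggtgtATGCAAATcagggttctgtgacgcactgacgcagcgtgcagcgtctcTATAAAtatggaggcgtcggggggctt

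The replication-dependent and variant genes differed in what their promoters held. In windows of 300 bases (250 before the start and 50 after), available for 65 of the 71 genes, TATAAA was found for 61.5% of 39 replication-dependent genes, 3 of 23 variants and 15.7% of all 27025 genes in the table. CCAAT was found for 84.6% of the replication-dependent genes, 47.8% of the variants and 41.1% of all genes. The octamer was found for 5 of 8 H2B genes and 6 of 13 H2A genes of the replication-dependent class, and for 1.97% of all genes. The H1 box was found for 4 of 5 replication-dependent H1 genes and 8.22% of all genes. These are matches of letters, and no binding was measured.

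Levels are given throughout as log2 of the processed signal minus the 75th percentile of the same array, so a level of 0 is a probe at that percentile; a level of one probe cannot be set against that of another. A probe was measured where the scanner software marked it well above background. Of the 71 genes, 67 were measured on every array of at least 1 cell type and 60 on all 19 arrays, including 43 of the 44 replication-dependent genes and 14 of the 24 variants. H1f3, H2ab1, H2al3 and H1f7 were measured on every array of no cell type. The 75th percentile itself was 50.1 to 81.3 on the 5 erythroblast arrays and 266 to 607 on the other 14, and fewer spots were well above background there (42.9% to 47.1% against 49.5% to 66.3%). The lowest level that could be measured was therefore higher on erythroblast arrays, at -2.93 to -2.54, than on the others, at -5.81 to -3.79. The counts for changes into or out of the erythroblasts are given beside the median change of all features and under a second scaling, on the spike-in controls of the array, which moves all genes of an array alike. Alas2, the first enzyme of heme synthesis in red cell precursors, was at 9.98 to 10.41 in early and 10.93 to 11.44 in late erythroblasts and at most 3.06 elsewhere, and summed granulocyte markers were highest in granulocytes, at 12.47 to 12.65. The summed macrophage markers were also highest in granulocytes, at 6.26 to 6.30, as were the B cell markers, at 4.95 to 5.04. The summed T and NK cell markers were highest in GMP. Hba-a1, an erythroblast marker, was at 8.23 to 8.37 in granulocytes and at most 4.33 in LSK cells and the progenitors. S100a9, a granulocyte marker, was at 10.60 to 10.85 in late erythroblasts and 10.03 to 10.26 in granulocytes. The part of other cells in the granulocyte values was not tested. In samples of many cells, fewer cells of a type and less RNA per cell cannot be told apart.

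Over the 7 cell types, 66 of the 67 genes tested varied by limma's moderated F test (Benjamini-Hochberg adjusted), beside 95.6% of all 26218 features tested (adjusted p under 0.05); H1f8, the oocyte linker histone, was the one that did not pass. Of 43 replication-dependent genes, 30 were highest in early erythroblasts and 10 in late erythroblasts, while H1f2 and H2ac18 were highest in granulocytes and H2ac6 in MEP, and 31 were lowest in LSK cells. Of 21 variants, 12 were highest in early and 6 in late erythroblasts. The median replication-dependent gene, centred on its own mean over the cell types, was at 3.23 and 2.38 on the 2 early erythroblast arrays, at 2.17, 1.86 and 1.93 in late erythroblasts, and below 0 on every other array, down to -1.73 in LSK cells. The 2 early erythroblast arrays thus differed from each other more than the 3 of the late ones did. The median variant was at 2.28 and 1.90 in early erythroblasts, at -1.53 to -1.20 in LSK cells and at -0.23 to -0.08 in granulocytes.

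**Figure D1:**
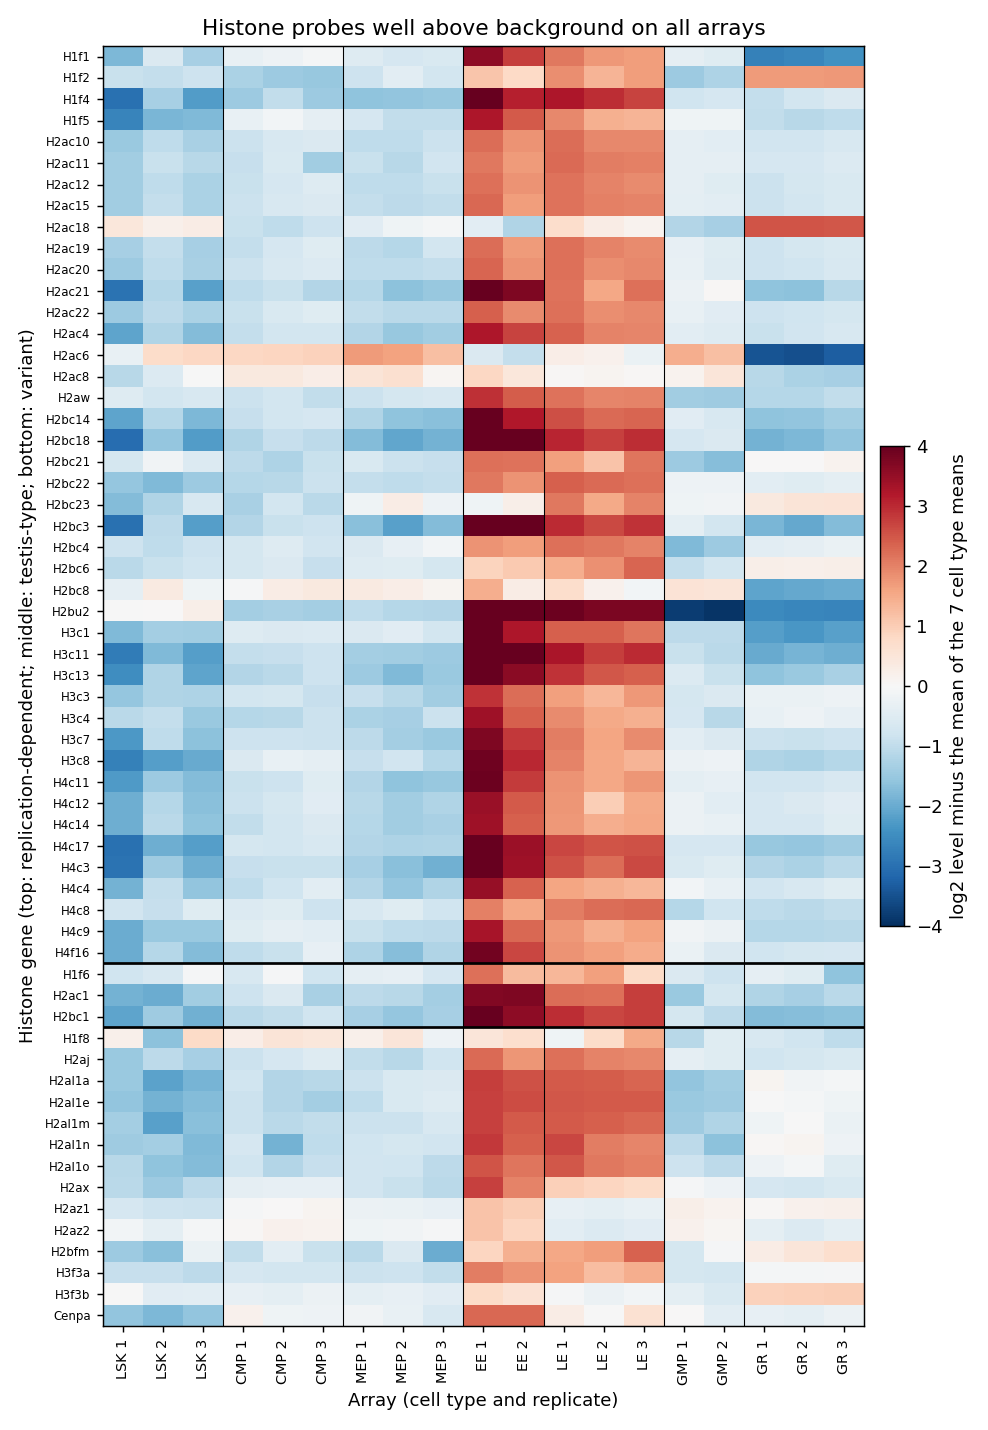
Heat map of the 60 histone genes well above background on all 19 arrays: each row is a gene, each column an array, and colour is the log2 level minus the mean of the 7 cell type means of that gene (scale clipped at -4 and 4). The erythroblast columns are red for most rows; H2ac6, H2ac18 and, among the variants, H3f3b, H2az1 and H2az2 are rows with another pattern.

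**Figure D2:**
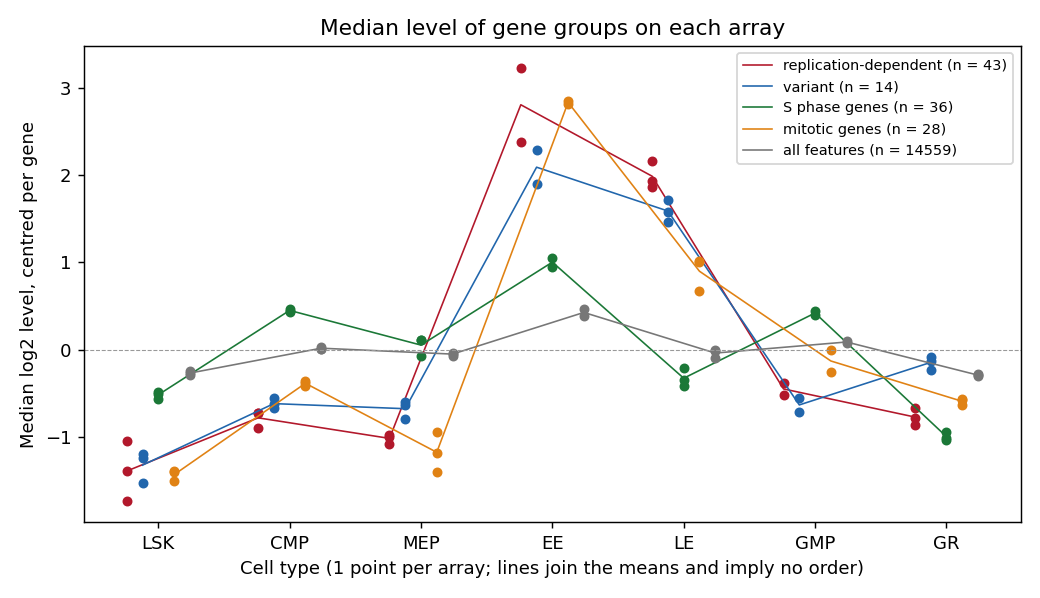
Median log2 level, centred per gene, on each array for 43 replication-dependent histone genes, 14 variants, 36 S phase genes, 28 mitotic genes and all 14559 features measured on all arrays. The replication-dependent median stays at 1.86 to 2.17 in late erythroblasts, where the S phase median lies between -0.42 and -0.21 and the mitotic median between 0.68 and 1.01.

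On the percentile scale the step from MEP to early erythroblasts held the largest median change of the replication-dependent genes, which was not so on the spike-in scale. Of 43 replication-dependent genes tested, 38 were higher in early erythroblasts and 2 lower (adjusted p from limma under 0.05), with a median difference of 3.77 on the log2 scale; of all 22770 features, 43.6% were higher and 37.7% lower, with a median of 0.23 (81.4% in either direction). All 4 measured H1 genes, all 7 H3 and all 9 H4 genes were higher, as were 10 of 13 H2A and 8 of 10 H2B genes. Of 21 variants, 18 were higher and 2 lower, with a median of 2.99. That median was the value of H2aj, whose probe ran with those of several replication-dependent H2A genes. A second probe of H2aj gave 1.39. Another 8 of the 21 were H2A.L genes, which are uncertain as separate genes, as described below. Among the 15 variants measured on every array of both groups, 14 were higher and 0 lower. The 3 genes of the testis type were higher too, by 2.19 to 5.35. On the spike-in scale H1f6 was at -1.31, H2ac1 at 1.38 and H2bc1 at 1.85, and all 3 passed. Mitotic genes rose by a similar median, 3.87, with 29 of 30 higher and 0 lower. Of 36 S phase genes 26 were higher and 5 lower, with a median of 0.97. The difference between these lists and the histone genes was not tested. On the spike-in scale 608 of all 22770 features were higher and 18248 lower, with a median of -3.27. There 12 of 43 replication-dependent genes were higher and 8 lower, with a median of 0.27. Of 21 variants, 0 were higher and 6 lower on that scale, with a median of -0.51. Whether most histone genes were higher thus differed between the scalings.

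H2bc18 (Hist2h2bb), an H2B gene, changed most. Its levels were 2.78, 2.43 and 2.60 in MEP and 9.62 and 8.83 in early erythroblasts, a difference of 6.62 ± 0.32 (SE from limma's fit, as after every difference here), or 98.5-fold (limma adjusted p = 7.2e-11). It was still higher on the spike-in scale, by 3.12. In late erythroblasts it stood at 7.54, 7.24 and 7.46, between early erythroblasts and all progenitors, which were between 1.45 and 3.91 with granulocytes at 2.62, 2.71 and 2.93. The probe for H2bc3 (Hist1h2bb), another H2B gene, ran so close to it over the 19 arrays (largest gap 0.49 after centring, r = 0.997) that the 2 may not be independent readings. H2bc3 rose by 6.34 ± 0.41.

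H2bu2 (Hist3h2ba), an H2B gene outside the main clusters, had the widest range of the class. Its levels were 2.09, 2.12 and 2.32 in LSK cells, 0.73, 0.79 and 0.73 in CMP, 1.08, 0.97 and 0.92 in MEP, 7.46 and 6.82 in early erythroblasts, 6.04, 5.85 and 5.87 in late erythroblasts, -1.71 and -1.83 in GMP and -0.46, -0.51 and -0.54 in granulocytes. The arrays of each cell type lay close together, and only those of CMP and MEP came near each other. The gene was lower in CMP than in LSK cells (-1.42 ± 0.14, adjusted p = 1.9e-06) and lower again in GMP than in CMP (-2.52 ± 0.15, adjusted p = 2.1e-08), both by limma. From MEP to early erythroblasts it was higher by 6.15 ± 0.15, or 71-fold, and by 2.65 on the spike-in scale. H2bc21 and H2bc4, named after their values were seen, were the other H2B genes with their lowest mean in GMP.

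Among linker histones, H1f4 (Hist1h1e) had the largest rise. It stood at 3.71, 5.35 and 4.45 in LSK cells, 5.23, 5.69 and 5.24 in CMP, 5.07, 5.10 and 5.16 in MEP, 10.69 and 9.81 in early erythroblasts, 9.93, 9.65 and 9.40 in late erythroblasts, 5.91 and 6.03 in GMP and 5.74, 5.96 and 6.10 in granulocytes. The erythroblast arrays were all far above the rest, and the LSK arrays spread the most. H1f4 was higher in early erythroblasts than in MEP by 5.14 ± 0.36 (limma adjusted p = 4.1e-09), and its early and late erythroblast arrays overlapped, with a difference of -0.59 ± 0.36 that did not pass (adjusted p = 0.167), though on the spike-in scale it was -1.52 and passed. H1f5 (Hist1h1b) and H1f1 (Hist1h1a) were higher in early erythroblasts than in MEP by 3.72 ± 0.26 and 3.77 ± 0.28, and unlike H1f4 both were lower in late than in early erythroblasts, with differences of -1.28 ± 0.26 and -1.33 ± 0.28. H1f4 kept on the spike-in scale a difference of 1.64 between early erythroblasts and MEP, whereas those of H1f5 and H1f1, at 0.22 and 0.27, did not pass.

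H1f2 (Hist1h1c), the remaining linker gene measured, had another pattern. Its levels were 3.42, 3.35 and 3.48 in LSK cells, 3.04, 2.85 and 2.78 in CMP, 3.47, 3.90 and 3.57 in MEP, 5.41 and 5.09 in early and 6.16, 5.65 and 5.98 in late erythroblasts, 2.86 and 3.08 in GMP and 6.01, 6.01 and 6.03 in granulocytes. Granulocytes and late erythroblasts overlapped at the top (difference -0.089 ± 0.15, adjusted p = 0.581 by limma; -4.12 on the spike-in scale, which passed), and CMP and GMP overlapped at the bottom. H1f2 was higher in early erythroblasts than in MEP by 1.60 ± 0.16, which turned to -1.90 on the spike-in scale. From GMP to granulocytes H1f2 was higher by 3.05 ± 0.16, or 8.28-fold (adjusted p = 1.3e-09), on a scale where H1f4 differed by -0.032 ± 0.36 and H1f1 by -2.17 ± 0.28. The 4 linker genes therefore split in granulocytes, with H1f2 up, H1f1 and H1f5 (-0.86 ± 0.26) down and H1f4 without a detectable difference (adjusted p = 0.942). The spike-in scale gave the same signs for H1f2 (3.40) and H1f1 (-1.82); the value for H1f5 (-0.51) did not pass there. H1f3 (Hist1h1d), the fifth somatic linker gene of the cluster, was well above background on 2 of 3 late erythroblast, 1 of 3 LSK and 1 of 3 MEP arrays and was not tested.

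**Figure D3:**
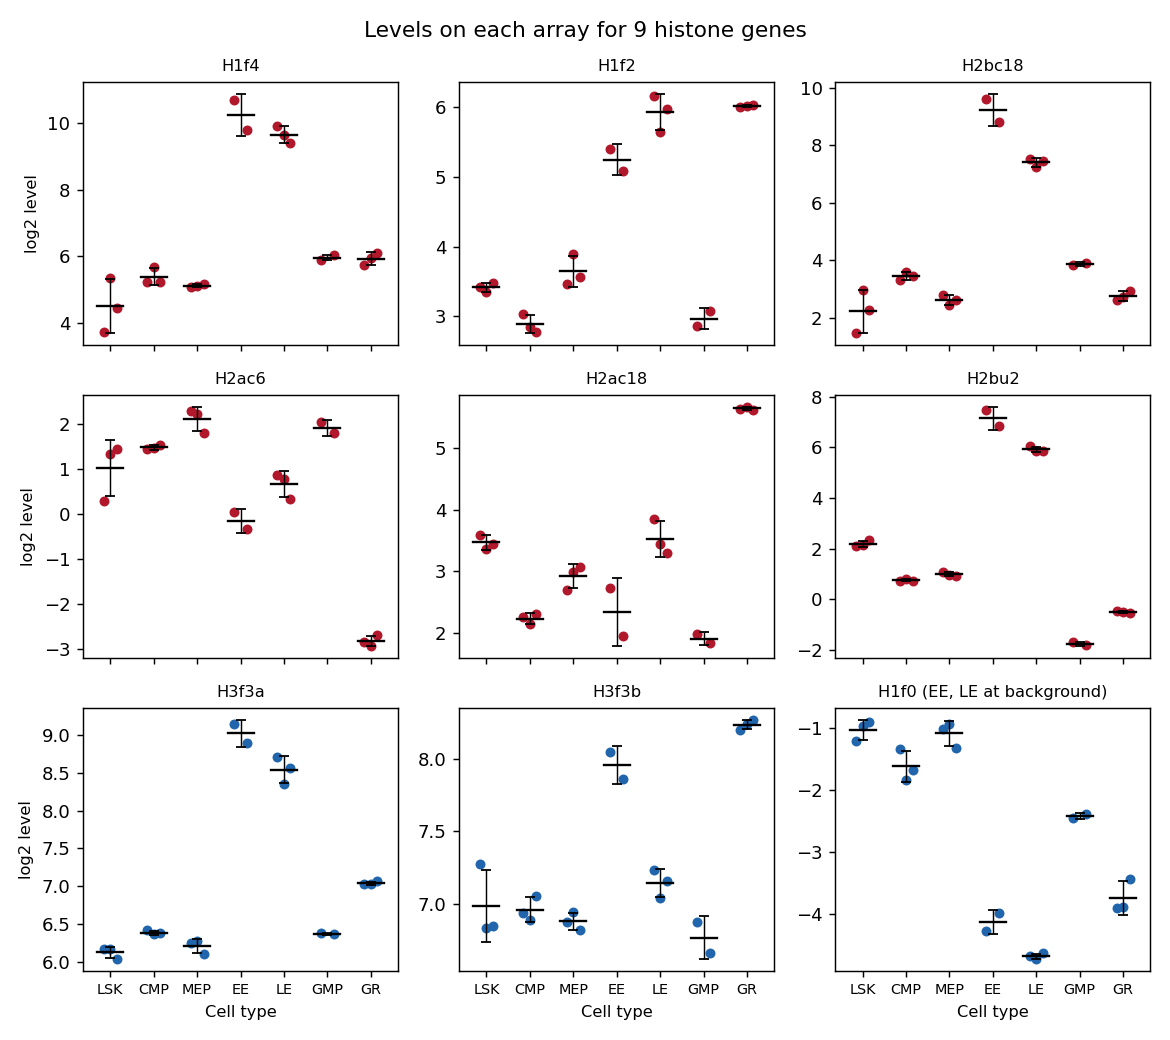
Log2 level on each array (points) for 9 histone genes in the 7 cell types, with the mean (bar) and SD (whisker) of 2 or 3 arrays; red marks replication-dependent genes and blue variants, and each panel has its own axis. H1f4, H2bc18, H2bu2 and H3f3a were highest in early erythroblasts, H1f2, H2ac18 and H3f3b in granulocytes, H2ac6 in MEP and H1f0 in LSK cells.

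Among the replication-dependent H2A genes, H2ac6 and H2ac18 went against the rest in early erythroblasts, and against each other in granulocytes. H2ac6 (Hist1h2ac) stood at 2.31, 2.23 and 1.81 in MEP, 0.048 and -0.33 in early erythroblasts, 0.88, 0.79 and 0.34 in late erythroblasts, 2.05 and 1.80 in GMP and -2.83, -2.92 and -2.69 in granulocytes. Its granulocyte arrays lay below every other array of the series, and its early erythroblast arrays below those of every progenitor population. It was lower in early erythroblasts than in MEP, with a difference of -2.26 ± 0.28 (limma adjusted p = 2.8e-06) and lower in granulocytes than in GMP, with a difference of -4.74 ± 0.28, or 26.7-fold (adjusted p = 3.3e-09). Both differences were negative on the spike-in scale too, at -5.76 and -4.39. In LSK and CMP cells its levels were 0.31, 1.34 and 1.45 and 1.45, 1.47 and 1.54.

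H2ac18 (Hist2h2aa1), named here after its values were seen, had its highest levels in granulocytes. They were 5.65, 5.67 and 5.63 there, 1.98 and 1.82 in GMP, 3.60, 3.36 and 3.44 in LSK cells, 2.25, 2.13 and 2.31 in CMP, 2.70, 2.98 and 3.07 in MEP, 2.73 and 1.94 in early and 3.85, 3.44 and 3.29 in late erythroblasts. No other array reached the granulocytes, and the difference from GMP was 3.75 ± 0.21, or 13.4-fold (limma adjusted p = 1.6e-09; 4.10 on the spike-in scale). H2ac18 was the 1 replication-dependent gene called lower in late erythroblasts than in granulocytes (-2.12 ± 0.18). Its difference between early erythroblasts and MEP, -0.58 ± 0.21, passed (adjusted p = 0.0167) although 1 early erythroblast array lay within the range of MEP. The nearby, almost identical gene H2ac19 (Hist2h2aa2), also chosen after its values were seen, was read by another probe and had no such rise in granulocytes (9.35 ± 0.11 against 9.67 ± 0.11 in GMP, mean ± SD of 3 and 2 arrays). That probe ran close to the one for H2ac10 (largest gap 0.15 after centring), so it may not read H2ac19 alone. Whether the genes or only the probes differ cannot be told from these values.

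H2ac21 (Hist2h2ab) and H2ac4 (Hist1h2ab) followed the main pattern. H2ac21 rose from -1.44, -1.94 and -1.80 in MEP to 4.18 and 3.45 in early erythroblasts (5.54 ± 0.40, 46.5-fold) and stood at 1.89, 1.25 and 1.91 in late erythroblasts. It had the largest fall of the class between the erythroblast stages, -2.13 ± 0.40 (limma adjusted p = 0.000312). H2ac4 was higher in early erythroblasts than in MEP by 4.32 ± 0.23 and its late minus early difference was -0.87 ± 0.23. The spike-in scale gave 2.04 for H2ac21 and 0.82, which did not pass, for H2ac4 between early erythroblasts and MEP.

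Several H2A probes gave what amounts to 1 reading. H2ac10, H2ac12, H2ac15, H2ac19, H2ac20, H2ac22 and the variant H2aj ran together over all 19 arrays, and H2aj differed from H2ac10 by at most 0.08 after centring (r = 0.9995). Using a largest gap of 0.5 as the limit, the 60 genes on all arrays reduced to 47 distinct profiles and the 43 replication-dependent ones to 34, so counts of genes overstate the number of separate readings. A second probe of H2aj behaved differently, with a difference of 1.39 between early erythroblasts and MEP where the brightest gave 2.99 ± 0.17, and -0.93 between late and early erythroblasts where the brightest gave 0.015 ± 0.17. The arrays' files hold no probe sequences here, so which paralogs a probe binds could not be looked up. H2ac10 is given as an example chosen after its values were seen. Its intensity ranged from 251026.5 to 525640.2 over all arrays, and no spot was flagged as saturated. H2ac10 was at -0.52 on the spike-in scale between early erythroblasts and MEP (adjusted p = 0.367 by limma), where the percentile scale gave 2.98 ± 0.17.

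All tested H3 and H4 genes were higher in early erythroblasts than in MEP on the percentile scale. H3c11 (Hist1h3i) went from 1.37, 1.34 and 1.25 in MEP to 7.63 and 6.71 in early erythroblasts and 5.99, 5.49 and 5.70 in late erythroblasts, and was at -0.068, 0.97 and 0.52 in LSK cells, 1.76, 1.80 and 1.88 in CMP, 1.85 and 1.65 in GMP and 0.71, 0.87 and 0.78 in granulocytes. Its difference between early erythroblasts and MEP was 5.85 ± 0.27 (limma adjusted p = 4.3e-11; 2.35 on the spike-in scale), and the arrays did not overlap. H3c13 (Hist2h3b) and H3c1 (Hist1h3a) were higher by 5.70 ± 0.33 and 4.22 ± 0.19, and at 2.20 and 0.72 on the spike-in scale, where H3c1 did not pass. H3c13 ran close to H2bc1, a gene of another family (largest gap 0.37).

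Of the H4 genes, H4c3 (Hist1h4c) had levels of 2.46, 2.11 and 1.84 in MEP, 8.17 and 7.18 in early erythroblasts, 6.32, 6.02 and 6.42 in late erythroblasts, 3.15 and 3.29 in GMP and 2.59, 2.50 and 2.71 in granulocytes. It was higher in early erythroblasts than in MEP by 5.54 ± 0.35 and lower in late than in early erythroblasts, with a difference of -1.42 ± 0.35 (limma adjusted p = 0.00257). H4c17 (Hist1h4m) and H4c11 (Hist1h4j) rose by 5.07 ± 0.25 and 4.79 ± 0.28 and fell by 1.28 and 1.65 over the same steps. The rises of H4c3, H4c17 and H4c11 were 2.04, 1.57 and 1.29 on the spike-in scale, and all 3 passed. Most mouse H4 genes encode the same core protein, and 3 of the H4 probes (H4c12, H4c14 and H4c4) gave near-identical profiles. H4c8 (Hist1h4h), named after its values were seen, was the H4 gene that did not fall between the erythroblast stages (0.40 ± 0.18, adjusted p = 0.0662).

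From early to late erythroblasts most replication-dependent genes fell, but not all. Of 43 tested, 24 were lower and 7 higher, with a median of -1.0, beside 37.7% and 22.1% of all 19134 features and their median of -0.17 (59.8% in either direction). All 7 H3 and 8 of 9 H4 genes were lower, and of the 13 H2A genes 3 were lower and 2 higher; the families were not tested against each other. Of the other H2A genes, 6 share the near-identical profile described above, and a second probe of H2ac15, 1 of these 6, gave -1.57 where the brightest gave 0.066 ± 0.17. Among the H4 genes that were lower, a second probe of H4c9 gave -0.12 where the brightest gave -1.20. Second probes of H4c12 and H4c14 gave -1.66 and -1.76. With the 75th percentile taken over probes measured on every array, 22 were lower and 11 higher, beside 5316 and 6667 of all features. On the spike-in scale 28 were lower and 0 higher, beside 8257 and 230 of all 19134 features. The medians there were -1.93 for the replication-dependent genes and -1.10 for all features. The 7 that were higher on the main scale were H1f2 (0.68 ± 0.16), H2ac18 (1.19 ± 0.20), H2ac6 (0.81 ± 0.28) and 4 H2B genes named after their values were seen, H2bc23 (1.85 ± 0.28), H2bc6 (0.90 ± 0.20), H2bc4 (0.37 ± 0.14) and H2bc22 (0.34 ± 0.13). H2bc23 (Hist1h2bq) had -1.26 and -0.85 in early and 1.03, 0.43 and 0.90 in late erythroblasts, with no overlap. The summed granulocyte markers were also higher in late erythroblasts (11.26 to 11.44) than in early ones (9.15 to 10.73), with all 7 measured on every array of both; their part in these differences was not tested.

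Late erythroblasts still held high histone levels after that fall. Against granulocytes, the other cells here at the end of a lineage, 41 of 43 replication-dependent genes were higher in late erythroblasts and 1 lower, with a median of 2.74, beside 38.7% and 43.8% of all 23070 features and their median of -0.12 (82.4% in either direction). Of 20 variants, 16 were higher and 3 lower, with a median of 2.20. This comparison turned with the scaling. On the spike-in scale 28 replication-dependent genes were lower and 1 higher, beside 20130 and 830 of all 23070 features. The medians there were -1.29 for the replication-dependent genes and -4.15 for all features. Between the erythroblast stages the S phase genes had a median difference of -1.23 (35 of 36 lower) and the mitotic genes of -1.91 (28 of 30 lower), beside the replication-dependent median of -1.0; the difference between these lists was not tested.

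From GMP to granulocytes the replication-dependent genes scattered in both directions. Of 43 tested, 14 were lower and 7 higher, with a median of -0.34. Of all 22945 features 38.9% were lower and 27.7% higher, with a median of -0.19 (66.6% in either direction). The majority direction was not stable. With the slide as a fixed block in the fit 5 were lower and 8 higher, and on the spike-in scale 3 lower and 5 higher. Of all features 6945 were lower and 4725 higher with the block, and 2414 and 4339 on the spike-in scale. The percentile over probes measured on every array gave 12 lower and 10 higher, and a fit of these 5 arrays alone 26 lower and 10 higher. Of all features the former gave 7282 lower and 8104 higher, and the latter 10003 lower and 7357 higher. In the latter fit 36 of 43 members were called, beside 17360 of all 22945 features. Whether a smaller share of the members than of all features was called thus also depended on the fit. In the main fit those lower included H2ac6, H1f1, H1f5, H2ac21, H2bc18 (-1.11 ± 0.32), H3c11 (-0.96 ± 0.27) and H3c1 (-1.19 ± 0.19). The largest fall after H2ac6 was that of the H2B gene H2bc8 (-2.56 ± 0.30), named after its values were seen. Those higher were H2ac18, H1f2, H2bc21 (1.64 ± 0.23), H2bu2 (1.27 ± 0.15), H2bc4 (1.26 ± 0.15), H2bc6 (1.07 ± 0.20) and H3c4 (0.62 ± 0.26), the last named after its values were seen. Over the same step 34 of 36 S phase genes and 11 of 30 mitotic genes were lower and 0 of either higher. The arrays of granulocytes and GMP shared no slide, so no value within a slide could be had.

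Most histone genes were somewhat higher in CMP than in LSK cells. Of 43 replication-dependent genes, 30 were higher in CMP and 4 lower, with a median of 0.74, beside 23.3% and 13.5% of all 24177 features and their median of 0.17 (36.8% in either direction). Of 17 variants, 10 were higher and 1 lower, with a median of 0.60. That median was again the value of H2aj, whose second probe gave 0.67. The count of 34 replication-dependent genes depended on single arrays, with 21 called without LSK replicate 1 and 22 without CMP replicate 3. It also depended on the scaling, with 10 higher and 5 lower under the percentile over probes measured on every array, and 8 higher and 0 lower on the spike-in scale. Of all 24177 features, 2580 were higher and 5394 lower under that percentile, and 800 and 951 on the spike-in scale. H1f5 had levels of 2.99, 3.80 and 3.87 in LSK cells and 5.33, 5.51 and 5.26 in CMP, a difference of 1.82 ± 0.23 (limma adjusted p = 2.8e-05) with no overlap. H4c17 was higher by 1.68 ± 0.23 and H3c11 by 1.34 ± 0.24. S phase genes rose as well, 33 of 36, as did mitotic genes, 27 of 30, with 0 lower in either list.

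The 4 replication-dependent genes that were lower in CMP than in LSK cells were H2bu2, H2ac18 (-1.24 ± 0.18), H1f2 (-0.53 ± 0.15) and H2bc21 (-0.60 ± 0.21). All 4 are also among the 7 that were higher in granulocytes than in GMP. The summed granulocyte markers were at 10.18 to 10.35 in LSK cells and at 7.34 to 8.20 in CMP, and all 7 were measured on every array of both, so these markers were lower where those genes were lower; their part was not tested.

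Between CMP and MEP few features of any kind were called, histone genes among them. In MEP, 3 of 43 replication-dependent genes were higher and 0 lower than in CMP, beside 1.87% and 2.65% of 22838 features (4.52% in either direction). They were H1f2 (0.76 ± 0.15, limma adjusted p = 0.00933), H2ac18 (0.69 ± 0.18, adjusted p = 0.0479) and H2bc23 (1.01 ± 0.25, adjusted p = 0.0333). None of the 3 was called without CMP replicate 2 or without CMP replicate 3, and 1 was called without CMP replicate 1, MEP replicate 2 or MEP replicate 3. Of 17 variants, 0 were called by limma, with 2 called without CMP replicate 1 and 1 without MEP replicate 1; at an unadjusted p under 0.05 limma had 6 of them, and normexp background correction gave 2. At an unadjusted p under 0.05 from limma, 5 replication-dependent genes were higher in MEP and 14 lower. The median replication-dependent gene was at -0.30, and 23 of 30 mitotic genes and 6 of 36 S phase genes were lower in MEP, with 0 higher.

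In GMP, 2 of 43 replication-dependent genes were higher and 3 lower than in CMP, beside 9.53% and 8.48% of 22810 features. Apart from H2bu2, those lower were H2bc4 (-0.95 ± 0.15) and H2aw (-0.54 ± 0.15), and those higher were H2bc22 (0.83 ± 0.13) and H2bc23 (0.88 ± 0.28); these 4 were named after their values were seen. Scaling by spike-ins left 0 higher and 1 lower, beside 260 and 1417 of all 22810 features. The count of 5 was 3 without CMP replicate 1, GMP replicate 1 or GMP replicate 2, and 3 were higher and 2 lower without CMP replicate 2. Of 17 variants, H1f0 (-0.80 ± 0.18) and H1f10 (-1.05 ± 0.31) were lower and 0 were higher. H1f10 was not called without CMP replicate 1, CMP replicate 3 or GMP replicate 2, and H1f0 was not called without GMP replicate 1.

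**Figure D4:**
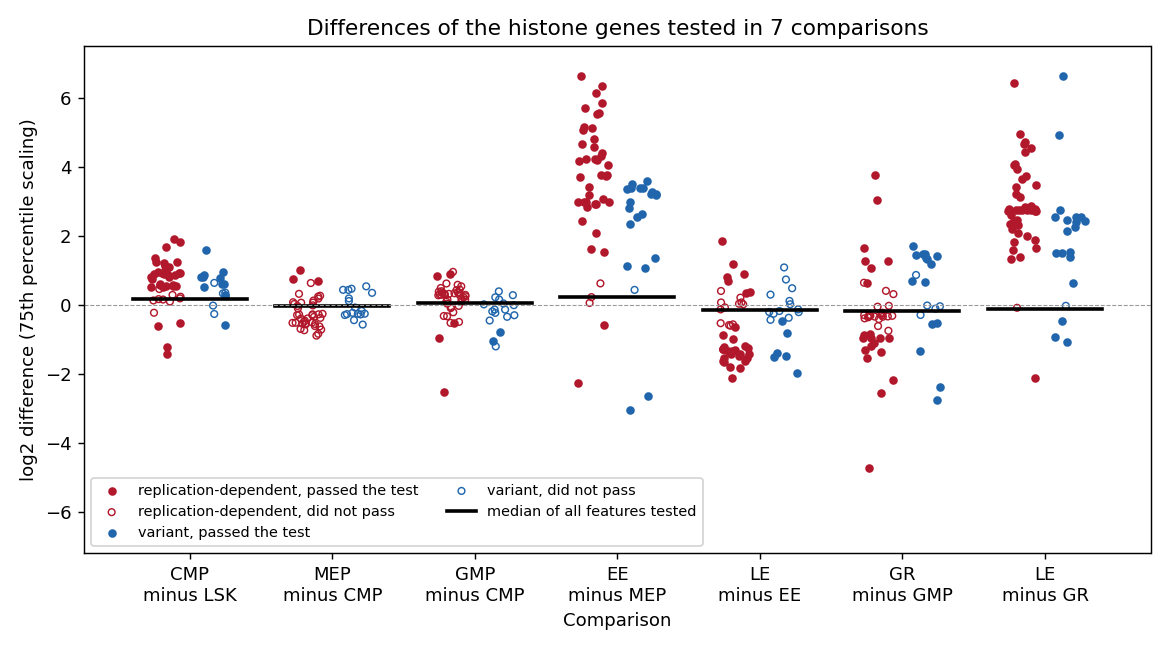
Log2 difference of each replication-dependent (red) and variant (blue) histone gene tested in 7 comparisons, with filled points for genes that passed limma's test and open points for those that did not; black bars mark the median of all features tested. The red points lie mostly above the bar for early erythroblasts minus MEP (median 3.77) and late erythroblasts minus granulocytes (median 2.74), and on both sides of it for granulocytes minus GMP.

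Among the variants, H1f0 (H1fv), the linker histone known for accumulating in cells that stop dividing, was low in the maturing cells. The LSK and MEP arrays overlapped at the top. Its levels were -1.22, -0.96 and -0.91 in LSK cells, -1.35, -1.84 and -1.68 in CMP, -1.01, -0.94 and -1.32 in MEP, -2.45 and -2.38 in GMP and -3.91, -3.89 and -3.43 in granulocytes, and it was not well above background on any erythroblast array. Against MEP, early erythroblasts were at least 3.44-fold lower (limma adjusted p = 7.4e-10), and granulocytes were lower than GMP, with a difference of -1.33 ± 0.18 (adjusted p = 1.4e-05; -0.97 on the spike-in scale, which did not pass). CMP were lower than LSK cells, with a difference of -0.59 ± 0.16. H1f10 (H1fx), another replacement linker histone, was at 0.31, -0.013 and 0.18 in MEP and was well above background on 1 of 2 early erythroblast arrays, 0 of 3 late ones and 2 of 3 granulocyte arrays. Its difference was -2.64 ± 0.31 between early erythroblasts and MEP and -2.39 ± 0.31 between granulocytes and GMP. On the percentile scale the replacement linker genes H1f0 and H1f10 thus fell on both branches. The clustered linker genes H1f4, H1f5 and H1f1 rose into erythroblasts on that scale, while H1f5 and H1f1 also fell from GMP to granulocytes. On the spike-in scale H1f10 was at -6.14 between early erythroblasts and MEP and at -2.04 between granulocytes and GMP.

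The 2 genes for H3.3, which encode the same protein, differed in where they were highest. H3f3a was at 6.25, 6.28 and 6.10 in MEP, 9.15 and 8.90 in early and 8.70, 8.35 and 8.57 in late erythroblasts, 6.38 and 6.37 in GMP and 7.03, 7.03 and 7.07 in granulocytes. H3f3b was at 6.88, 6.94 and 6.82 in MEP, 8.05 and 7.86 in early and 7.24, 7.04 and 7.16 in late erythroblasts, 6.87 and 6.67 in GMP and 8.20, 8.24 and 8.27 in granulocytes. Both were higher in early erythroblasts than in MEP, by 2.81 ± 0.12 and 1.07 ± 0.14, and higher in granulocytes than in GMP, by 0.67 ± 0.12 and 1.46 ± 0.14. In late erythroblasts against granulocytes their signs were opposite, 1.5 ± 0.11 and -1.09 ± 0.12; the difference between the genes was not tested. The 3 probes of H3f3b did not give the same value for early erythroblasts minus MEP, at 1.07, 0.65 and -0.62, while all 3 were higher in granulocytes than in GMP (1.46, 1.49 and 0.48). Both probes of H3f3a were higher in both comparisons. On the spike-in scale the difference between early erythroblasts and MEP was -0.69 for H3f3a, which did not pass, and -2.43 for H3f3b, which did.

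The H2A variants that serve in all cells moved with the erythroblast stages. H2ax, whose phosphorylation marks broken DNA, was at 5.21, 5.10 and 4.91 in MEP, 8.72 and 7.98 in early erythroblasts and 6.95, 6.86 and 6.74 in late erythroblasts, with differences of 3.28 ± 0.18 and then -1.5 ± 0.18. H2ax was at -0.22, which did not pass, and -2.43 on the spike-in scale. H2az1 was at 8.33, 8.30 and 8.24, 9.72 and 9.55 and 8.24, 8.18 and 8.26 on the same arrays, so its late erythroblast arrays overlapped those of MEP. A second H2az1 probe, measured on all 19 arrays, gave 0.28 between early erythroblasts and MEP where the brightest gave 1.34 ± 0.10. By its brightest probe H2az1 was higher in CMP than in LSK cells by 0.82 ± 0.094 (limma adjusted p = 9.3e-06). Its difference between late and early erythroblasts was -1.41 ± 0.10. H2az2 had the same order, with 1.13 ± 0.12 and -1.48 ± 0.12, though a second probe of it gave 2.35 for the first of these differences. In granulocytes H2az1 was at 8.61, 8.72 and 8.75, near GMP (8.79 and 8.69), and higher than in late erythroblasts. With spike-in scaling the rise of H2az1 into early erythroblasts became a fall of 2.15, and H2az2 was at -2.37.

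Cenpa, the centromeric histone H3, which is loaded after mitosis, was at 2.71, 2.49 and 2.71 in LSK cells, 4.46, 4.11 and 4.10 in CMP, 4.16, 4.0 and 3.66 in MEP, 6.58 and 6.57 in early erythroblasts, 4.59, 4.28 and 4.89 in late erythroblasts, 4.30 and 3.87 in GMP and 3.97, 3.90 and 4.04 in granulocytes. LSK cells were below and early erythroblasts above every other array. The differences were 1.59 ± 0.18 from LSK cells to CMP, 2.63 ± 0.20 from MEP to early erythroblasts and -1.99 ± 0.19 from early to late erythroblasts (limma adjusted p = 6.7e-06, 8.2e-09 and 9.1e-07). Cenpa had the largest fall of the variants between the erythroblast stages, where 6 of 19 variants were lower and 0 higher, beside 37.7% and 22.1% of all features. Cenpa's change on the spike-in scale into early erythroblasts was -0.87 and did not pass.

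The other variants are known mainly from germ cells. Probes of 8 H2A.L genes (H2al1a, H2al1e, H2al1j, H2al1m, H2al1n, H2al1o, H2al2a and H2al2b) were well above background on every erythroblast array, and all 8 were higher in early erythroblasts than in MEP, by 3.20 to 3.39 for the 5 measured on every array of both, and higher in granulocytes than in GMP, by 0.68 to 1.45 for the same 5. Of the 8, 0 passed between early erythroblasts and MEP on the spike-in scale (-0.32 for H2al2a to -0.0074 for H2al1j, with limma adjusted p from 0.605 to 0.992). H2al1e, as an example, was at -1.21, -0.78 and -0.69 in MEP, 2.55 and 2.43 in early erythroblasts, -1.66 and -1.59 in GMP and -0.21, -0.27 and -0.35 in granulocytes. H2al1j, H2al2a and H2al2b were well above background on 2 of 3 MEP arrays and on 0 of 2 GMP arrays, and were at least 1.60-fold, 1.94-fold and 1.38-fold higher in granulocytes than in GMP. Names of this family mark close copies, and 3 of the probes (H2al1a, H2al1e and H2al1m) gave near-identical profiles, so they are uncertain as separate genes. They supplied 8 of the 10 variants that were higher in granulocytes than in GMP, the other 2 being H3f3a and H3f3b, beside 5 of 20 that were lower; of all features 27.7% were higher and 38.9% lower. Among the 15 variants measured on every array of both groups, 7 were higher and 3 lower.

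H2ap was at 2.13 and 1.89 in early and 2.12, 2.58 and 2.21 in late erythroblasts against -1.64, -1.54 and -1.58 in MEP, -1.67 and -1.46 in GMP and -4.31, -4.68 and -4.02 in granulocytes, where it was well above background on 2 of 3 arrays. Its difference between late erythroblasts and granulocytes, 6.64 ± 0.20, was the largest of any histone gene there, and was 2.61 on the spike-in scale. H2bfm was higher in early erythroblasts than in MEP by 2.35 ± 0.44 (-1.15 on the spike-in scale, which did not pass). H2bl1 was well above background on all 5 erythroblast arrays, 2 of 3 LSK and 1 of 3 MEP arrays and on none of CMP, GMP or granulocytes, and was at least 14.7-fold higher in late erythroblasts than in granulocytes; on the spike-in scale its fitted difference, 0.88, did not pass. H1f8 was at -1.24 ± 0.43 in GMP and 0.25 ± 0.84 in late erythroblasts (mean ± SD), with LSK arrays at -0.24, -2.08 and 0.33.

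Genes that make, process and carry histones moved in both directions. Of 40 tested genes for histone message transcription and processing, 15 were higher and 14 lower in early erythroblasts than in MEP, beside 43.6% and 37.7% of all features, and 27 of 39 were lower and 1 higher in late than in early erythroblasts, beside 37.7% and 22.1%. Zfp473, a zinc finger protein of the histone pre-mRNA processing complex, was higher in early erythroblasts than in MEP by 3.57 ± 0.16 and lower in late ones by 2.16 ± 0.16 (SE). Slbp, which binds the stem-loop of histone messages, was lower in late than in early erythroblasts by 1.78 ± 0.25 (limma adjusted p = 2.6e-05). Of 32 histone chaperone genes, 18 were higher and 10 lower in early erythroblasts than in MEP and 24 were lower and 4 higher in late than in early ones. Npm1, a nucleolar chaperone, was lower in early erythroblasts than in MEP by 3.88 ± 0.19. On the spike-in scale the difference between early erythroblasts and MEP was 0.071 for Zfp473, which did not pass, and -7.38 for Npm1, which did. The other values of these lists are given on the percentile scale alone. From GMP to granulocytes 28 of 40 processing genes were lower and 3 higher, and 25 of 32 chaperone genes were lower and 1 higher, beside 38.9% and 27.7% of all features.

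On the slides that held both groups of a comparison, every histone gene called kept its direction: all 34 replication-dependent and 11 variant genes of CMP against LSK cells on slides 3 and 4, all 40 and 20 of early erythroblasts against MEP on slide 3, and all 31 and 6 of late against early erythroblasts on slides 1 and 3. Late erythroblasts and granulocytes shared no slide. The genes were called from a fit that included these same arrays, so the kept directions are no independent check of a slide effect. Early erythroblasts against MEP on slide 3 rested on 1 array of each.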

How the data were processed

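Total RNA of 7 sorted mouse bone marrow populations was measured on 19 one-colour Agilent arrays. The deposited values are spot intensity values from Agilent Feature Extraction 11.5.1.1, per the file headers; the processed signal used here is already background-corrected by that software. The deposited series table gives their intensity after background subtraction. The labels name Cy5 as the dye, while the files hold 1 channel named green.

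Control spots (1319 of 62543) and outlier spots (34 to 173 per array) were left out, and spots of a probe were averaged. Probes were named through their RefSeq accession (27235 of 59628 probes; GRCm38.p6 used for names and promoters only), and the brightest probe stood for a gene. Levels are log2 intensity minus the array's 75th percentile. limma 3.58.1 (R 4.3.3) fitted a mean for each cell type over all arrays, with Benjamini-Hochberg adjustment over all features tested. A feature was tested if all arrays of either group measured it, and called at an adjusted p under 0.05 if all arrays of the higher group did. The steps were tested on simulated data. The array number and signal over background, not a read depth, limit the precision. A bound ("at least") sets the brighter group's mean against the lowest signal measurable on the dimmer arrays.

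The genes described one by one were every variant measured in a cell type, the linker genes H1f1 to H1f5 and, in each core family, the 3 replication-dependent genes with the largest range; any other is said to be chosen after its values were seen. From each list of other genes, up to 3 called members with the largest difference could be named. The histone genes, lists, filter and call rule were chosen with earlier results of these data known. Replicate numbers did not pair the samples: no comparison had a correlation above 0.1 for every same-numbered pair. The alternatives were normexp background correction (planned on the mean signal but run on the median signal, a change from plan), quantile normalization, another percentile, 6 spike-in probes as the scale, the mean of all probes, no filter, slide or replicate number as a block, the series table, each pair of groups alone, and leaving out each array.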

Additional observations from a re-analysis of the deposited data

How the results depend on the processing

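The comparisons are named by their 2 cell types, and counts are of histone genes called by limma. Of the 52 single-gene results, all 52 kept direction and side of the threshold with the mean of all probes and with the percentile over probes measured on every array, 51 with the series table, the slide block and the replicate block, 49 with quantile normalization and with normexp, 48 without the filter and 45 in fits of each pair of groups alone. On the spike-in scale 28 did, 24 lost their call or size and 10 turned sign before the median of all features was taken off. Relative to that median, H3f3b between early erythroblasts and MEP turned to -0.15 with normexp and -0.16 without the filter. Leaving out 1 array kept 258 of 277 such values. Of the 71 histone genes only 13 had several probes, so for the other histone genes the mean of all probes was the same reading.

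On the spike-in scale the counts for replication-dependent genes were 8 in place of 34 for CMP against LSK, 0 in place of 3 for MEP against CMP, 1 in place of 5 for GMP against CMP and 20 in place of 40 for early erythroblasts against MEP. They were 8 in place of 21 for granulocytes against GMP and 29 in place of 42 for late erythroblasts against granulocytes, both with the majority direction turned. For variants they were 1 in place of 11, 1 in place of 2 for GMP against CMP, 6 in place of 20 for early erythroblasts against MEP and 19 in place of 19 for late erythroblasts against granulocytes, the last 2 turned. The percentile over measured probes gave 15 and 7 for CMP against LSK and 1 variant for MEP against CMP. Normexp gave 6 and 2 for MEP against CMP and 1 variant for GMP against CMP. No filter gave 1 for MEP against CMP, and 3 and 1 for GMP against CMP. Fits of 2 groups alone gave 0 for MEP against CMP and 36 for granulocytes against GMP. The slide block gave 13, turned, and 9 for granulocytes against GMP and 1 variant for GMP against CMP. The causes were not tested.

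The replicate number as a block, which did not pair the samples, gave 40 replication-dependent genes and 20 variants for early erythroblasts against MEP and changed no count by over 1.5 times. Leaving out 1 array at a time gave ranges, for replication-dependent genes and then variants, of 21 to 33 and 9 to 11 for CMP against LSK, 0 to 3 and 0 to 2 for MEP against CMP, 3 to 5 and 1 to 2 for GMP against CMP, 39 to 40 and 19 to 20 for early erythroblasts against MEP, 28 to 32 and 6 to 6 for late against early erythroblasts, 19 to 20 and 13 to 16 for granulocytes against GMP and 42 to 43 and 18 to 19 for late erythroblasts against granulocytes. The variation over the cell types kept 66 to 67 genes. Without CMP replicate 2 the 5 of GMP against CMP turned to 3 higher and 2 lower. Low signal over background on erythroblast arrays limits what can be said of dim genes such as H1f0 there.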
